A study of Orbilia oligospora with 12 samples.

Results

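Arthrobotrys oligospora is a soil fungus known for trapping nematodes in adhesive networks of hyphae. Its vegetative hyphae were compared by RNA-seq, before any trap was induced, between a strain labelled ΔAorlmA and the wild type. The comparison takes the libraries whose labels give the 0 h time point, 3 of the wild type and 3 of the labelled mutant, which is 6 of the 12 libraries in the study. The other 6 were taken after 48 h with nematode extract, the treatment that induces traps, and enter only to share the estimate of spread and to show whether a difference was also seen later. Both groups had received no extract and had grown for 5 days at 28 °C on potato dextrose agar. The labels call the replicates biological and do not say that they came from separate cultures, so p-values measure only the spread between these libraries, which may be technical. How the deletion strain was made and how many transformants it stands for are not stated in the labels, and the growth protocol of the labels names another deletion strain, ΔAosnf1. Expression is given as TPM, a share of all transcripts corrected for gene length, so that levels can be compared between genes.

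The deleted gene named in the label, AorlmA, belongs to the Rlm1 family of MADS-box transcription factors. In yeast Rlm1 is switched on by the last kinase of the cell wall integrity pathway, in which sensors at the plasma membrane pass a signal through the GTPase Rho1 and protein kinase C to a MAP kinase cascade, and it turns on genes that build and repair the wall. Vegetative hyphae grow at their tips, where new wall of glucan and chitin is laid down, and in this fungus the same hyphae later form conidiophores, on which spores are borne, or traps.

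The gene to which the label points was examined first. AOL_s00078g125, annotated as SMP1 and RLM1, had 38.5, 39.99 and 30.2 TPM in wild-type libraries 1 to 3 and 72.2, 116 and 164 TPM in labelled mutant libraries 1 to 3. Its level was thus higher in every labelled mutant library, with a log2 fold change of 1.60 (SE 0.31, limma adjusted p = 0.00298) and a two-sided exact permutation p of 0.1, the smallest that 3 libraries against 3 can give. The gene annotated as SNF1, AOL_s00173g192, was not lost either, with 103, 108 and 109 TPM in the wild type and 38.3, 53.9 and 36.98 TPM in the labelled mutant. Because neither gene was lost, each direction given is one between libraries that carry these labels. Of the other genes with a MADS box, MCM1 (AOL_s00112g128), a regulator of mating and cell cycle genes in yeast, had 202, 181 and 182 TPM in the wild type and 196, 192 and 176 TPM in the labelled mutant. AOL_s00088g15, a gene with an SRF-type domain, had 35.98, 24.96 and 36.8 TPM and 11.7, 21.8 and 12.6 TPM, and its fall was called on the TPM scale alone (-1.07, limma adjusted p = 0.0189). That call ended without wild-type library 1, wild-type library 3 or labelled mutant library 3 (adjusted p = 0.0569, 0.0732 and 0.063).

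The libraries held 52.5 to 61.1 M clean reads, and 8707 to 9177 genes reached 1 TPM in each. RNA was less evenly spread over genes in the labelled mutant, where the 100 most abundant genes held 35.1% to 37.6% of all TPM, against 30.6% to 32.7% in the wild type. The median SD of a gene between libraries, on the log2 scale, was 0.48 in the labelled mutant and 0.27 in the wild type. Among all genes called on both scales, labelled mutant library 2 lay nearest the wild type for 60.1% and wild-type library 3 lay farthest from the labelled mutant for 72.4%. Over all tested genes on the log2 scale, labelled mutant library 2 correlated at 0.919 and 0.922 with wild-type libraries 1 and 2. Its correlations were 0.903 with labelled mutant library 1 and 0.96 with library 3, so the groups did not separate fully. Markers of hyphae, a list of 9 genes for the Woronin body protein HEX1, septins, actin and tubulins, were measured in every library, with a summed level of 6774 to 7242 TPM in the wild type and 7250.1 to 9546 TPM in the labelled mutant. HEX1 alone held most of that sum, and the other 8 genes summed to 2925 to 3357 TPM in the wild type and 2008 to 2420.1 TPM in the labelled mutant, so that the order of the groups depends on HEX1. None of the 9 was called on both scales. Markers of conidia and conidiophores, also 9 genes, of which 7 were tested, summed to 1915 to 2997 TPM in the wild type and 131 to 748 TPM in the labelled mutant. The rodlet gene AOL_s00006g570 held most of the wild-type sum, and the other 8 genes summed to 114 to 158 TPM and 91.1 to 529 TPM, ranges that overlap. Among these, AOL_s00079g472, annotated as CON13, went the other way (44.9, 36.4 and 9.98 TPM in the wild type and 507, 218 and 77.1 TPM in the labelled mutant). Of the conidial markers 1, a hydrophobin gene below 1 TPM in the wild type, was listed at 0 in all 3 labelled mutant libraries. In bulk RNA, fewer cells of a type and less RNA per cell cannot be told apart, and the part of a different share of aerial or spore-forming hyphae in the strain differences was not tested.

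Strain differences were tested on both the TPM scale and on TPM scaled by the median of ratios, which sets each library by its median gene, because the median gene had a log2 fold change of -0.56 on the TPM scale. After scaling the median was -0.06. A gene was called at a limma adjusted p under 0.05. On the TPM scale 830 of 9355 genes tested were higher in the labelled mutant (8.87%) and 3160 were lower (33.8%). On the scaled values 1341 were higher (14.3%) and 1033 lower (11.0%). Both scales called 828 genes higher (8.85%) and 1033 lower (11.0%), no gene was called in opposite directions, and 2127 genes were lower on the TPM scale alone. The number of lower genes thus differed between the scales, 3160 against 1033, and genes called on both scales are the ones described.

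**Figure D1:**
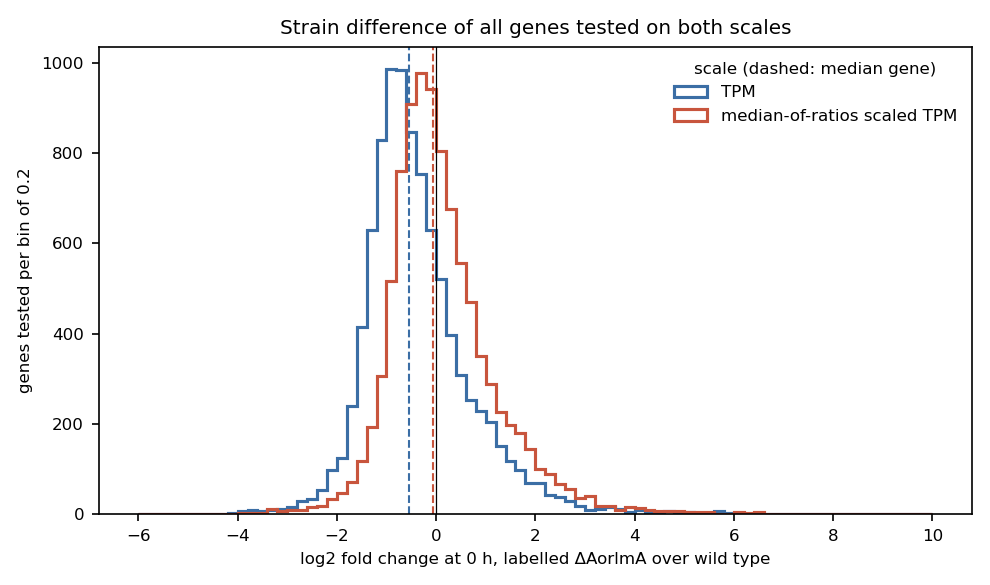
Histogram of the log2 fold change at 0 h, labelled ΔAorlmA over wild type, of all 9355 genes tested, in bins of 0.2, on the TPM scale (blue) and on median-of-ratios scaled TPM (red), with each median dashed. The bulk of genes lies left of 0 on the TPM scale, with a median of -0.56, and near 0 after scaling, with a median of -0.06, while a tail of large rises is present on both.

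At least a 2-fold change on both scales was seen for 726 of the 828 higher genes and 674 of the 1033 lower genes. All 3 labelled mutant libraries lay above all 3 wild-type libraries for 764 of the 828, and below for all 1033 of the lower genes. Such separation was common over the table as a whole, at 11.0% of all tested genes above and 42.8% below. The number of calls rested strongly on wild-type library 3. Without it 447 of the 828 and 382 of the 1033 remained called on both scales, and without labelled mutant library 3 540 and 505 remained. Without each of the 6 libraries in turn, 415 higher and 340 lower genes, of the 9355 tested, kept their call on both scales in all 6 fits. Unless another statement stands beside it, every gene named as higher, lower, risen or fallen belongs to these, and list counts are given both for calls on both scales and for those kept in all 6 fits. Of 35 lists with at least 5 called members, the total of calls fell by more than 1.5 times in 29 without wild-type library 3, in 20 without labelled mutant library 3, in 16 without wild-type library 2, in 9 without wild-type library 1 and in 3 without labelled mutant library 1.

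Of the cell wall integrity cascade itself, a sensor gene and the gene to which the label points were called on both scales. Of 20 tested members 1 was higher on both scales, the gene to which the label points, and 1 lower (5.0% each, against 8.85% and 11.0% of all genes; median log2 fold change -0.30 on the TPM scale and 0.22 after scaling), and both were kept in all 6 fits. On the TPM scale 1 was higher and 5 lower, after scaling 3 were higher and 1 lower, and 12 were called on neither scale. The lower one was AOL_s00215g752, annotated as a WSC-type sensor and holding a CFEM domain, a cysteine-rich surface module of fungi. It fell from 65.8, 89.2 and 84.01 TPM in the wild type to 14.1, 25.6 and 19.5 TPM in the labelled mutant, a log2 fold change of -1.99 (SE 0.28, limma adjusted p = 0.000869) and of -1.44 after scaling. Among the genes that carry the signal, 6 of 7 genes for protein kinase C, Rho1, Bck1, Mkk1 and the MAP kinase passed on neither scale, with log2 fold changes of -0.74 to -0.03 on the TPM scale and -0.22 to 0.51 after scaling. The remaining one, the Slt2-type MAP kinase AOL_s00173g235, which phosphorylates Rlm1 in yeast, had 219, 229.7 and 285 TPM in the wild type and 103, 134 and 92.3 TPM in the labelled mutant. These values do not overlap, and the fall was called on the TPM scale (-1.15, limma adjusted p = 0.00397) but not after scaling (-0.60, adjusted p = 0.0541).

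A kinase of the neighbouring osmotic stress cascade differed far more. PBS2 (AOL_s00097g443), the MAP kinase kinase that in yeast answers to high osmolarity, had 20.9, 18.3 and 12.02 TPM in the wild type and 119, 123 and 181 TPM in the labelled mutant, so that the lowest labelled mutant library stood above every wild-type library. After scaling its log2 fold change was 3.51 (limma adjusted p = 0.000461). It was the only member called on both scales among 22 tested genes of the osmotic and pheromone cascades (list medians -0.29 and 0.25). The shares, 4.55% higher and 0% lower, stand beside 8.85% and 11.0% of all genes.

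The gene for glucan synthase was higher. FKS1 (AOL_s00054g491), the catalytic subunit of beta-1,3-glucan synthase, had 77.6, 69.2 and 67.8 TPM in the wild type and 512, 285 and 394 TPM in the labelled mutant, without overlap. Its log2 fold change was 2.42 on the TPM scale and 2.97 after scaling (limma adjusted p = 0.000193 and 8.04e-05), while at 48 h it was 0.34 and did not pass (adjusted p = 0.339). EXGB (AOL_s00043g294), an enzyme that hydrolyses beta-1,6-glucan, rose from 55.1, 74.2 and 62.7 to 181, 150.4 and 268 TPM (log2 fold change 1.59, limma adjusted p = 0.00533). Of the 30 tested genes of glucan synthesis and remodelling 5 were higher and 2 lower on both scales (medians -0.23 and 0.30), of which 1 and 0 were kept in all 6 fits, the kept one being FKS1. The shares, 16.7% and 6.67%, stand beside 8.85% and 11.0% of all genes. EXGB is counted with the plant wall enzymes and not in this list.

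Several chitin synthase genes were higher. Of 25 tested genes for chitin synthesis and chitinases 9 were higher and 1 lower on both scales (36.0% and 4.0%, against 8.85% and 11.0% of all genes), of which 7 and 0 were kept in all 6 fits, and 11 were called on neither scale. The list median was 0.20 on the TPM scale and 0.67 after scaling. The synthase annotated as CHSG (AOL_s00075g119) had 111, 67.9 and 17.6 TPM in the wild type and 236, 389 and 206 TPM in the labelled mutant (log2 fold change 2.35, SE 0.52, limma adjusted p = 0.00513). Wild-type library 3 was by far its lowest value, and the groups did not overlap. A gene annotated as CHSD (AOL_s00078g76) had 74.5, 64.4 and 56.2 TPM and 244, 132 and 129 TPM (log2 fold change 1.30, adjusted p = 0.00466). A less abundant gene of the same annotation, AOL_s00210g143, had 8.19, 9.25 and 3.23 TPM and 31.3, 23.6 and 27.9 TPM (1.95, adjusted p = 0.00362), and it was higher at 48 h as well (1.83, adjusted p = 0.00991). The neighbouring synthase genes AOL_s00210g37 and AOL_s00210g38, annotated as CHS8 and CHS6, rose by 1.32 and 0.94 on the log2 scale. CHR3 (AOL_s00112g114), a regulatory factor of chitin synthase, rose with them (1.38).

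**Figure D2:**
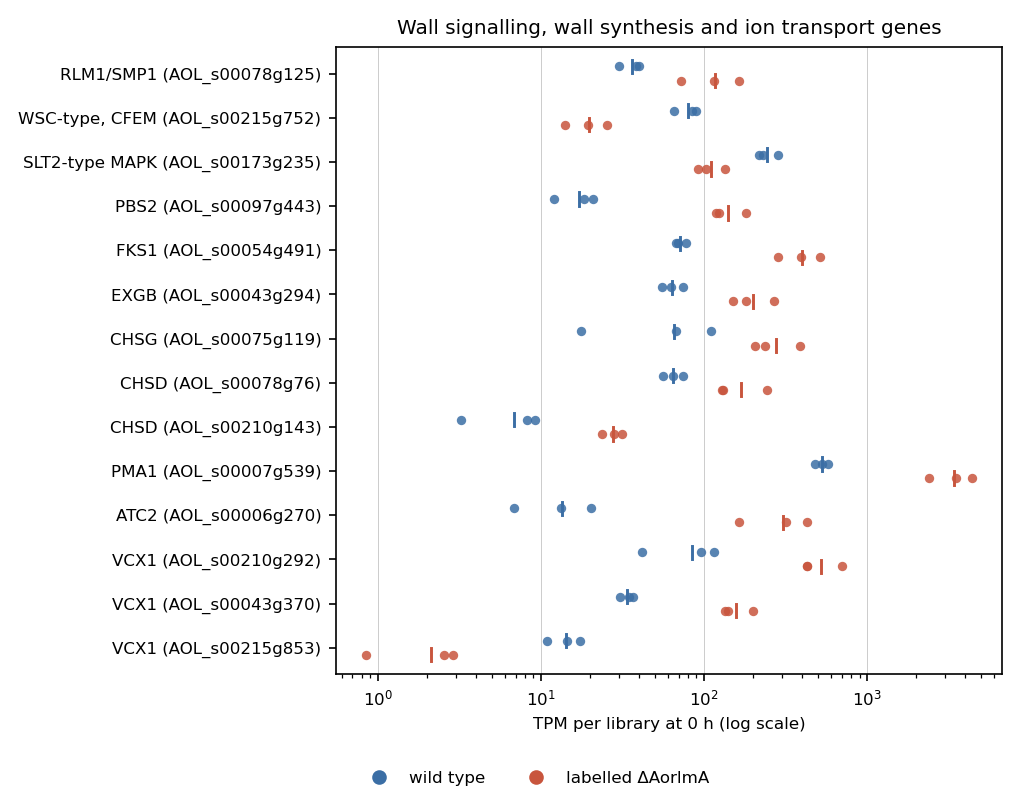
TPM in each library at 0 h (log axis) of genes of wall signalling, wall synthesis and ion transport, 3 wild-type libraries in blue and 3 labelled ΔAorlmA libraries in red, with a tick at each group mean. The groups do not overlap for any gene shown, and FKS1, PMA1 and the calcium ATPase ATC2 lie far to the right in the labelled mutant, while the CFEM-domain gene, the Slt2-type kinase and AOL_s00215g853 lie to the left.

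Some genes for pumps and carriers of ions were higher. PMA1 (AOL_s00007g539), the proton pump that powers uptake across the plasma membrane, had 577, 483 and 527 TPM in the wild type and 3486, 2396 and 4382 TPM in the labelled mutant. This is a log2 fold change of 2.65 (SE 0.31, limma adjusted p = 0.000335), and the gene was higher at 48 h too (1.67, adjusted p = 0.00677). A calcium-transporting ATPase annotated as ATC2 (AOL_s00006g270) rose from 20.4, 13.4 and 6.89 TPM to 429, 165 and 317 TPM (4.40, adjusted p = 0.000222). The gene next to it in number, AOL_s00006g271, annotated as the alcohol dehydrogenase ADH7, rose from 1.19, 0.93 and 0.66 TPM to 45.3, 8.69 and 38.4 TPM. Genes annotated as the vacuolar calcium exchanger VCX1, which stores calcium in the vacuole, went both ways. AOL_s00043g370 and AOL_s00210g292 were higher (2.17 and 2.69), the second with 115, 95.6 and 41.9 TPM in the wild type and 707, 429 and 427 TPM in the labelled mutant. AOL_s00215g853 was lower, with 14.5, 10.98 and 17.4 TPM and 2.91, 2.56 and 0.85 TPM (-2.35, adjusted p = 0.00174). Of 20 tested calcium genes 4 were higher and 2 lower on both scales, of which 3 and 1 were kept in all 6 fits.

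Single genes for the transport of potassium or magnesium, the assimilation of sulphate or the sensing of copper showed large rises. The potassium transporter gene TRK2 (AOL_s00007g386) had 19.4, 15.2 and 12.3 TPM in the wild type and 88.1, 85.2 and 123 TPM in the labelled mutant (2.58, limma adjusted p = 0.00103). A gene with a CorA domain, the fold of magnesium channels, AOL_s00083g95, had 11.4, 7.87 and 0.43 TPM and 179, 149 and 208 TPM (5.04, SE 0.70). Wild-type library 3 was again its lowest, far below the other wild-type libraries, and all labelled mutant libraries stood above all wild-type ones. MET3 (AOL_s00079g152), the sulfate adenylyltransferase that starts sulphate assimilation, rose from 52.99, 31.2 and 11.6 TPM to 489.7, 562 and 353 TPM (4.04, adjusted p = 0.000544). AOL_s00054g391, annotated as the copper-sensing factor GRISEA of Podospora, rose from 14.8, 10.5 and 3.19 TPM to 38.9, 49.9 and 87.9 TPM (2.63). In contrast the acid phosphatase PHOA (AOL_s00173g63), which frees phosphate outside the cell, fell from 163, 101 and 142 TPM to 29.8, 28.7 and 19.2 TPM (-2.34, adjusted p = 0.00069), and at 48 h it did not pass (-0.09, adjusted p = 0.865). Over the 33 tested genes of metal, phosphate and sulphur uptake 4 were higher and 3 lower on both scales, of which 1 and 1, TRK2 and PHOA, were kept in all 6 fits. The shares, 12.1% and 9.09%, stand beside 8.85% and 11.0% of all genes. The CorA gene, MET3 and GRISEA are not members of that list.

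Some genes for the use of nitrate and ammonium were lower. NIT4 (AOL_s00004g609), which in Neurospora turns on the nitrate genes, had 77.4, 79.5 and 91.9 TPM in the wild type and 9.79, 24.4 and 8.44 TPM in the labelled mutant. Its log2 fold change was -2.61 (SE 0.37, limma adjusted p = 0.000892) and -2.07 after scaling. The gene next to it in number, the nitrate transporter CRNA (AOL_s00004g610), fell from 835, 1149 and 1216 TPM to 23.6, 277 and 74.5 TPM (-3.71, adjusted p = 0.00205). In both, labelled mutant library 2 was the highest of its group and still below every wild-type library, and both were lower at 48 h as well (-1.83 and -2.59). The enzymes that follow, nitrate reductase (AOL_s00210g163, 469.5, 473 and 432 TPM against 128, 294 and 171 TPM) and nitrite reductase (AOL_s00210g162, 635, 596 and 582 TPM against 86.3, 396 and 184 TPM), also did not overlap. Their falls were called on the TPM scale (-1.29 and -1.70) but not after scaling (-0.74 and -1.15, adjusted p = 0.118 and 0.0775).

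A pair of ammonium transporter genes fell as well. The ammonium transporter MEP2 (AOL_s00043g163), which in yeast also senses ammonium, had 343, 429 and 732 TPM in the wild type and 70.9, 103 and 36.3 TPM in the labelled mutant (-2.87, SE 0.47, limma adjusted p = 0.00167), and the fall was present at 48 h (-2.61, adjusted p = 0.00665). A second one, AMT1 (AOL_s00006g212), fell from 98.8, 92.3 and 83.4 TPM to 29.9, 32.3 and 22.02 TPM (-1.68). Glutamine synthetase (AOL_s00173g269), which fixes ammonium, had 3112, 2452 and 3241 TPM and 533, 1559 and 693 TPM and was called lower on both scales (-1.81 and -1.25), but after scaling the call ended without any 1 of 5 libraries, all but labelled mutant library 2 (adjusted p = 0.0562 to 0.0958). DAL81 (AOL_s00078g85), a yeast regulator of the use of poor nitrogen sources, fell from 95.7, 98.5 and 103 TPM to 6.67, 35.4 and 10.8 TPM (-2.75, adjusted p = 0.00203). D-amino-acid oxidase (AOL_s00097g114), which frees ammonium from D-amino acids, fell from 2263, 2016 and 3096 TPM to 191, 610.1 and 431 TPM (-2.71). AOL_s00054g736, a permease of the nucleobase and cation symporter family, fell by 3.09 on the log2 scale.

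Some genes of peptide uptake and purine breakdown were higher. The peptide transporter PTR2 (AOL_s00215g902) had 949, 637 and 246 TPM in the wild type and 1844, 1259 and 3117 TPM in the labelled mutant (1.86, limma adjusted p = 0.00782). In contrast ISP4 (AOL_s00188g351), a gene of the oligopeptide transporter family, fell from 458, 269.8 and 433 TPM to 93.3, 66.5 and 26.1 TPM (-2.76, adjusted p = 0.00114). BAT1 (AOL_s00054g294), annotated as an amino-acid permease, rose from 7.51, 6.69 and 5.41 TPM to 32.1, 14.8 and 22.2 TPM (1.62). AOL_s00173g125, annotated as UAY, the activator of purine use in Aspergillus, rose from 76.6, 59.1 and 31.1 TPM to 379, 251 and 294 TPM (2.52, adjusted p = 0.00069). Xanthine dehydrogenase (AOL_s00081g325), an enzyme of that pathway, rose from 47.9, 43.7 and 45.3 TPM to 111, 85.2 and 149 TPM (1.28), and both were higher at 48 h (1.24 and 1.08). The next enzyme, uricase (AOL_s00097g623), had 1152, 804 and 428 TPM and 1273, 1915 and 4059 TPM and was called higher on both scales (1.55, adjusted p = 0.0199). On the TPM scale that call ended without wild-type library 3 (1.16, adjusted p = 0.0925) and without labelled mutant library 3 (1.09, adjusted p = 0.0875). Over 27 nitrogen genes 3 were higher and 4 lower on both scales (11.1% and 14.8%, against 8.85% and 11.0% of all genes), of which 0 and 2 were kept in all 6 fits. All calls on the TPM scale, whether or not kept after scaling, were 3 and 16 (medians -1.09 on the TPM scale and -0.58 after scaling). On that scale 8.87% of all genes were called higher and 33.8% lower. NIT4, DAL81, UAY, xanthine dehydrogenase and D-amino-acid oxidase stand in other lists and are not in these counts. Over 54 tested transporters of amino acids, peptides, ammonium and urea 8 were higher and 11 lower (14.8% and 20.4%), of which 3 and 4 were kept.

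Cofactor genes of these pathways, chosen after their values were seen, went both ways. Xanthine dehydrogenase and nitrate reductase carry a molybdenum cofactor. MOCS1 (AOL_s00097g589), an early enzyme of its synthesis, rose from 40.1, 36.4 and 35.1 TPM to 109, 57.4 and 131 TPM (1.31, limma adjusted p = 0.00948; 1.86 after scaling). Both genes annotated as molybdenum cofactor sulfurase, which readies the cofactor for xanthine dehydrogenase, rose as well. AOL_s00043g725 had 27.2, 20.5 and 19.6 TPM and 79.8, 53.05 and 109 TPM (1.76, adjusted p = 0.00184), and AOL_s00110g319 had 6.87, 14.1 and 7.23 TPM and 30.4, 34.1 and 26.4 TPM (1.65, adjusted p = 0.00411). The probable 5-hydroxyisourate hydrolase AOL_s00007g344, which acts on the product of uricase, rose from 149.6, 117 and 118 TPM to 458, 307 and 628 TPM (1.80, adjusted p = 0.00186). SUMT (AOL_s00079g163), an enzyme on the route to siroheme, the cofactor of nitrite and sulfite reductases, fell from 139.5, 136 and 132 TPM to 11.3, 46.96 and 17.6 TPM (-2.63, adjusted p = 0.00173; -2.08 after scaling) and was lower at 48 h too (-2.47). The groups did not overlap for any of these 5 genes, and all 5 calls were kept in the 6 fits that each left out 1 library.

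**Figure D3:**
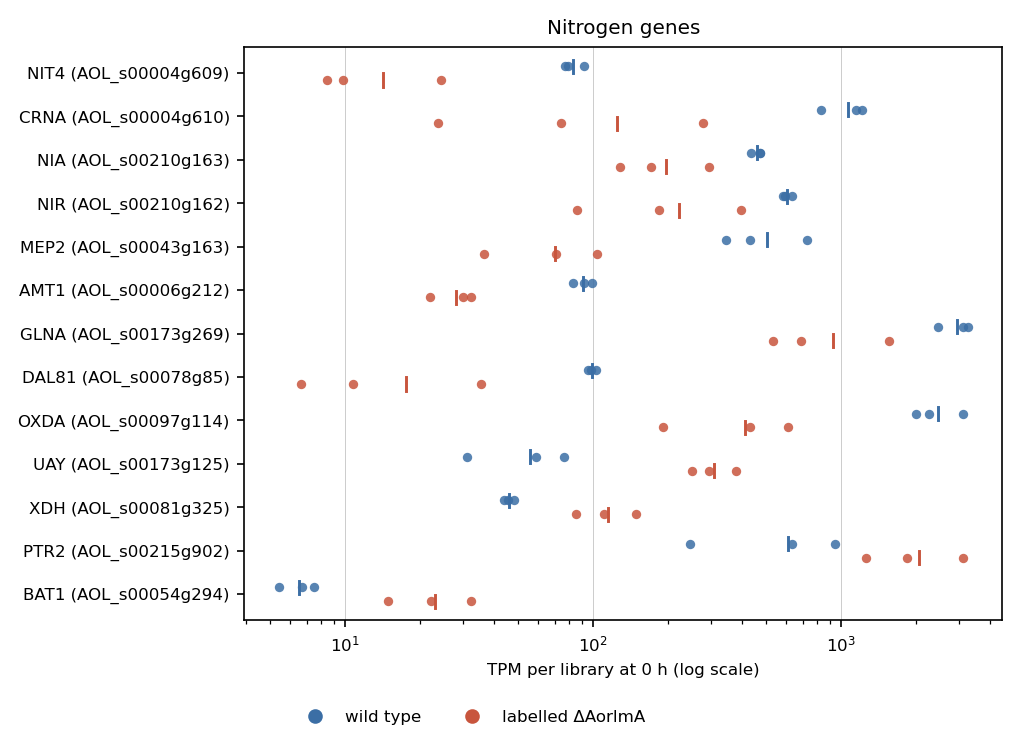
TPM in each library at 0 h (log axis) of nitrogen genes, 3 wild-type libraries in blue and 3 labelled ΔAorlmA libraries in red, with a tick at each group mean. The genes from NIT4 to OXDA lie lower in the labelled mutant and those from UAY to BAT1 higher, without overlap, and labelled mutant library 2 is the red point nearest the wild type for NIT4, CRNA and both reductases.

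Sugar uptake and glycogen showed some of the largest falls. The sugar transporter gene AOL_s00080g195, annotated as MST7, stood at 1438, 1182 and 1598 TPM in the wild type, and its labelled mutant libraries stood at 4.16, 284 and 51.2 TPM, widely spread and all below the wild type. The glucose transporter AOL_s00054g267 had 50.2, 33.5 and 41.1 TPM and 1.12, 2.73 and 0.61 TPM, and its strain difference of -4.17 at 0 h was -0.07 at 48 h (interaction adjusted p = 0.00306, limma). Permeases annotated as LACP went both ways, with AOL_s00043g636 lower (-1.82) and AOL_s00078g582 higher (2.56). Of 59 tested sugar transporters 5 were higher and 8 lower on both scales (8.47% and 13.6%, against 8.85% and 11.0% of all genes), of which 2 and 7 were kept in all 6 fits. Glycogenin (AOL_s00054g323), which primes glycogen chains, fell from 284, 237 and 262 TPM to 9.06, 73.1 and 30.9 TPM (-3.18, adjusted p = 0.00194). It was 1 of 2 storage-carbon genes, of 14 tested, that were lower (14.3%, against 11.0% of all genes), and none was higher.

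Enzymes of alcohols, aldehydes and fats followed with both signs. Alcohol dehydrogenase ADH2 (AOL_s00110g284) had 45.6, 50.7 and 6.12 TPM in the wild type and 584, 389 and 465 TPM in the labelled mutant (4.20, SE 0.69, limma adjusted p = 0.00164), with wild-type library 3 again far below the other wild-type libraries. An aldehyde dehydrogenase (AOL_s00004g254) fell from 372, 550.1 and 679 TPM to 51.4, 150.3 and 109.7 TPM (-2.44). PEX11 (AOL_s00083g431), which divides peroxisomes, stood at 15.2, 19.6 and 9.98 TPM and 128, 151 and 436 TPM, and labelled mutant library 3 was the highest. AOL_s00007g287, annotated as CYP505, a fatty acid hydroxylase fused to its reductase, had 150.4, 132 and 21.2 TPM and 640.4, 764 and 2073 TPM (3.72, adjusted p = 0.00289), with the same library highest. Of 82 tested genes of fatty acid breakdown and the peroxisome 11 were higher and 3 lower on both scales (6 and 1 kept). These are 13.4% and 3.66%, against 8.85% and 11.0% of all genes. At 48 h, where 9.14% of all genes were higher and 12.5% lower, 18 were higher and 2 lower. Carriers of the inner mitochondrial membrane gave 6 higher and 3 lower of 37 tested (16.2% and 8.11%, with 2 and 2 kept). The largest fall among them was that of the 2-oxoglutarate/malate carrier gene AOL_s00215g29, at 84.3, 90.2 and 67.7 TPM and 0.64, 11.8 and 6.85 TPM, followed by AOL_s00188g56 (-3.46).

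Amino acid synthesis showed no common direction. Of 95 tested genes 8 were higher and 8 lower on both scales (3 and 1 kept). These are 8.42% each, against 8.85% and 11.0% of all genes. The list medians were -0.65 and -0.11, next to -0.56 and -0.06 over all genes. Those that rose included LEU1 (AOL_s00097g354), 2-isopropylmalate synthase, the first enzyme of the leucine branch, with 164, 119 and 101 TPM in the wild type and 471, 428 and 373 TPM in the labelled mutant (1.74, limma adjusted p = 0.00106). Homocitrate synthase (AOL_s00081g238), the first enzyme of fungal lysine synthesis, rose from 349, 249 and 197 TPM to 907, 804 and 946 TPM (1.77). Neither passed at 48 h (0.50 and 0.38).

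Genes that build ribosomes formed the list with the most rises. Of 103 tested genes of ribosome biogenesis 34 were higher and 4 lower on both scales (33.0% and 3.88%, against 8.85% and 11.0% of all genes), with medians of 0.38 on the TPM scale and 0.93 after scaling. Left out one at a time, the libraries gave 17 to 37 higher members, the smallest counts being 17 without wild-type library 2, 17 without labelled mutant library 3 and 19 without wild-type library 3. In all 6 fits 15 of the 34 were kept. ESF2 (AOL_s00004g539), which works on the small-subunit precursor in the nucleolus, had 24.6, 19.5 and 17.1 TPM in the wild type and 48.4, 74.6 and 71 TPM in the labelled mutant (1.61, SE 0.28, limma adjusted p = 0.00196). NOP16 (AOL_s00004g387), a factor of the large subunit, rose from 36.2, 27.5 and 29.5 TPM to 76.3, 87.5 and 92.2 TPM (1.43). UTP5 (AOL_s00081g347), of the small-subunit processome, rose from 26.1, 20.8 and 19.6 TPM to 60.4, 57.1 and 82.9 TPM (1.54). RPA43 (AOL_s00193g40), a subunit of the polymerase that makes ribosomal RNA and counted in another list, rose from 19.6, 21.4 and 29.4 TPM to 62.9, 36.1 and 73.2 TPM (1.22). The exception kept in all 6 fits was AOL_s00076g709, a nucleolar protein gene without a known role in its annotation, which fell from 39.7, 46.7 and 59.2 TPM to 14.9, 15.9 and 9.89 TPM (-1.77) and was lower at 48 h (-1.91).

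The direction of the ribosome biogenesis genes differed between the time points. At 48 h 0 of the 103 were higher and 31 lower on both scales, with medians of -0.87 and -0.73. At that time 9.14% of all genes were higher and 12.5% lower. For 28 of the 103 the strain difference at 48 h differed from that at 0 h on both scales (limma interaction, adjusted p under 0.05). Among all 9355 genes 237 passed that test. ESF2 (AOL_s00004g539), for one, had a log2 fold change of -0.47 at 48 h against 1.61 at 0 h (interaction adjusted p = 0.0212).

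**Figure D4:**
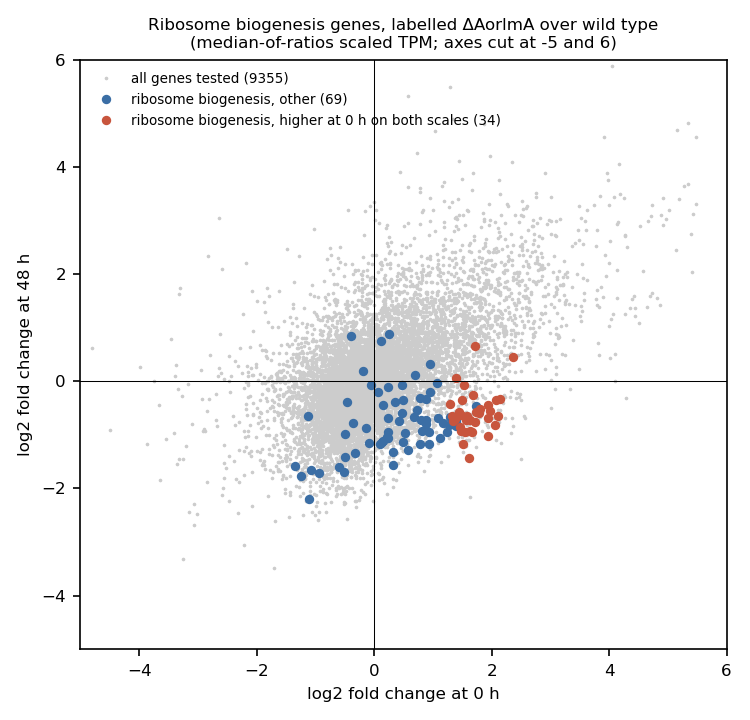
Log2 fold change, labelled ΔAorlmA over wild type, at 0 h (x axis) and 48 h (y axis) on median-of-ratios scaled TPM, for all 9355 genes tested (grey) and the 103 tested ribosome biogenesis genes, of which 34 were higher at 0 h on both scales (red) and 69 were not (blue). Most red points lie right of 0 on the x axis and below 0 on the y axis; genes beyond -5 or 6 are not drawn.

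Ribosomal proteins did not show the rise at 0 h. Of 78 genes of the cytosolic ribosome 0 were called on both scales in either direction, as were 0 of 53 of the mitochondrial ribosome. On the TPM scale the counts were 0 of 78 in either direction, and 0 higher and 8 lower of 53. On the scaled values 2 of 78 and 3 of 53 were higher. Their medians were -0.19 and -0.37 on the TPM scale and 0.37 and 0.17 after scaling, so the sign depends on the scale. At 48 h, by contrast, 51 of the 78 cytosolic and 12 of the 53 mitochondrial ribosome genes were lower on both scales and 0 were higher, where 12.5% of all genes were lower and 9.14% higher. The medians were -1.06 and -0.87 on the TPM scale and -0.92 and -0.72 after scaling, so the lower level at 48 h was not particular to the biogenesis genes. Of 47 translation factor genes 4 were higher and 3 lower at 0 h on both scales (3 and 1 kept). These are 8.51% and 6.38%, against 8.85% and 11.0% of all genes. Elongation factor 3 (AOL_s00210g131), which fungi need to release spent tRNA, rose from 652, 421 and 296 TPM to 3706, 1554 and 1367 TPM (2.20, limma adjusted p = 0.0036). The release factor ERF1 (AOL_s00215g544) rose from 127, 115 and 124.8 TPM to 216, 206 and 256 TPM (0.87). AOL_s00210g187, 1 of the genes annotated as elongation factor 2 and holding its C-terminal domains, fell from 95.4, 90.2 and 157 TPM to 4.84, 13.5 and 6.08 TPM (-3.73). The ribosome-bound chaperone SSB1 (AOL_s00007g116), the poly(A)-binding protein (AOL_s00193g6) and the mitochondrial import subunit TIM44 (AOL_s00006g92) were higher (1.24, 1.06 and 1.65).

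For several large housekeeping lists the number of lower genes depended on the scale, as it did over all genes. Of all genes 33.8% were called lower on the TPM scale and 11.0% after scaling. Of 41 proteasome genes 30 were lower on the TPM scale and 1 after scaling (medians -0.85 and -0.30). Of 38 aminoacyl-tRNA synthetase genes 28 were lower on the TPM scale and 5 after scaling (-0.97 and -0.42), and 0 of the 5 were kept in all 6 fits. Genes of oxidative phosphorylation gave 32 lower of 74 on the TPM scale and 1 after scaling (-0.61 and -0.05). Genes of protein glycosylation and GPI anchors gave 44 lower of 75 and then 15 (-0.96 and -0.43), with 2 of the 15 kept in all 6 fits and 4 remaining without wild-type library 3. Genes of polarised growth, septins, actin and motors gave 30 lower of 81 and then 7 (-0.77 and -0.24), with 0 of the 7 kept, and ubiquitin ligation gave 34 of 64 and then 6 (-0.84 and -0.30), with 1 kept. After scaling, the shares called lower in these lists ranged from below to above the 11.0% of all genes, being highest for glycosylation (15 of 75) and lowest for oxidative phosphorylation (1 of 74).

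**Figure D5:**
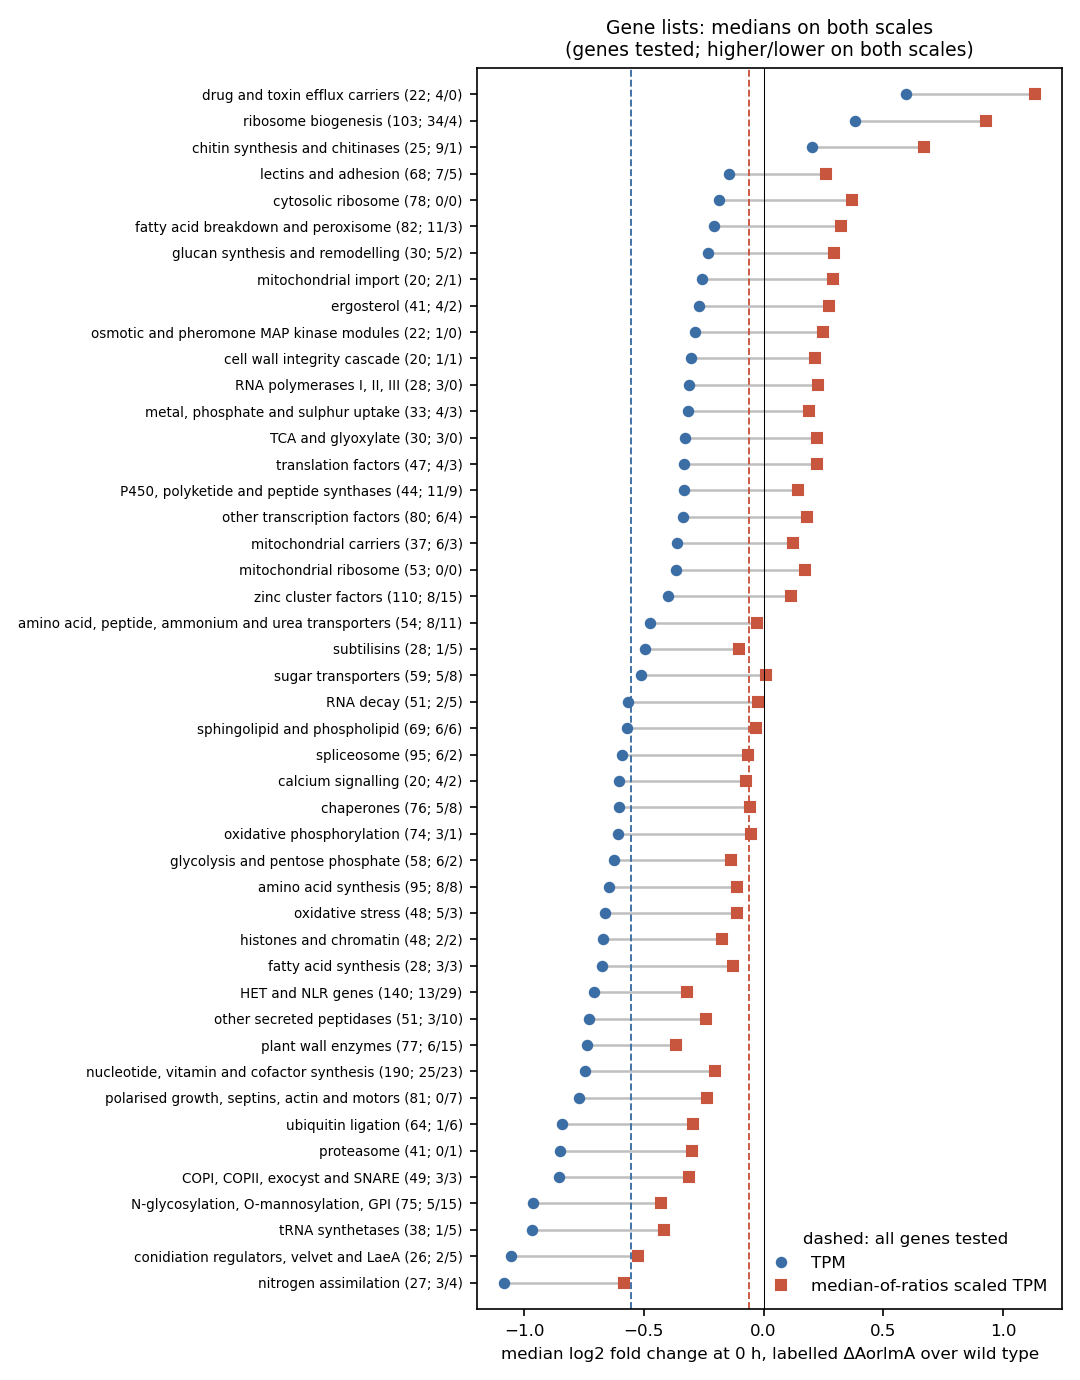
Median log2 fold change at 0 h, labelled ΔAorlmA over wild type, of the 46 gene lists with at least 20 tested genes, on the TPM scale (blue circles) and on median-of-ratios scaled TPM (red squares), with dashed lines at the medians of all genes tested (-0.56 and -0.06). Beside each name stand the genes tested and those higher/lower on both scales; efflux carriers, ribosome biogenesis and chitin synthesis have medians above 0 on both scales, and nitrogen assimilation and conidiation regulators have the lowest.

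The gene of a central regulator of conidiation was lower. BRLA (AOL_s00097g514), which in Aspergillus starts conidiophore development, had 70.04, 45.2 and 59.9 TPM in the wild type and 7.01, 11.2 and 0.89 TPM in the labelled mutant, without overlap and with labelled mutant library 3 lowest (-3.36, SE 0.67, limma adjusted p = 0.00365; -2.88 after scaling). The regulators that act after it in Aspergillus, ABAA (AOL_s00080g63, 30.6, 28.6 and 30.6 TPM against 10.7, 15.6 and 9.28 TPM) and WETA (AOL_s00173g221, 7.09, 6.04 and 7.53 TPM against 2.49, 2.09 and 2.92 TPM), did not overlap either. Their falls were called on the TPM scale (-1.30 and -1.17) and not after scaling (-0.77 and -0.73, adjusted p = 0.0647 and 0.0759). Of 26 tested conidiation, velvet and LaeA genes 2 were higher and 5 lower on both scales (0 and 1 kept). These are 7.69% and 19.2%, against 8.85% and 11.0% of all genes. All calls on the TPM scale, whether or not kept after scaling, were 2 and 13, where 8.87% and 33.8% of all genes were called (medians -1.05 on the TPM scale and -0.53 after scaling). AOL_s00006g324, named for the sporulation protein SPO5, fell from 45.9, 52.2 and 55.96 TPM to 11.3, 9.29 and 5.61 TPM (-2.47).

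Of 7 tested genes for hydrophobins and conidial proteins 1 was higher and 3 were lower on both scales (0 and 2 kept). These are 14.3% and 42.9%, against 8.85% and 11.0% of all genes. A gene with a hydrophobin domain, AOL_s00007g172, had 4.48, 4.28 and 5.02 TPM in the wild type and 0.6, 0.59 and 0 TPM in the labelled mutant, and was called lower on both scales. The rodlet hydrophobin AOL_s00006g570, which coats spores and aerial hyphae, had 2670.5, 1793 and 2883 TPM in the wild type and 219, 406 and 40.2 TPM in the labelled mutant (-3.96, limma adjusted p = 0.00868; -3.40 after scaling). After scaling that call ended without wild-type library 1, wild-type library 3 or labelled mutant library 3 (adjusted p = 0.0615, 0.0739 and 0.0947). AOL_s00079g472, annotated as the conidiation-specific protein CON13, rose from 44.9, 36.4 and 9.98 TPM to 507, 218 and 77.1 TPM (2.95, adjusted p = 0.0106), a call that ended on the TPM scale without wild-type library 3 (2.31, adjusted p = 0.0548). A receptor gene of the surface, AOL_s00076g249, annotated as the G-protein coupled receptor GCR1, fell from 25.1, 29.4 and 38.4 TPM to 0.36, 3.45 and 2.76 TPM (-3.48) and was lower at 48 h (-2.58).

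Among regulators of transcription and chromatin a pair of genes rose strongly. SET1 (AOL_s00054g887), which methylates lysine 4 of histone H3, had 16.7, 14.5 and 9.99 TPM in the wild type and 93.01, 170.2 and 169 TPM in the labelled mutant (3.27, SE 0.34, limma adjusted p = 0.000184). AOL_s00215g460, with a fungal transcription factor domain, had 20.2, 17 and 16.7 TPM and 256, 149 and 232 TPM (3.46, adjusted p = 9.27e-05). Both differences were smaller at 48 h (0.57 and 0.90, interaction adjusted p = 0.0195 and 0.0195). The homeobox gene AOL_s00043g624 fell from 53.95, 76.5 and 50.6 TPM to 5.12, 9.98 and 4.48 TPM (-3.07), and a histone H4 gene, AOL_s00006g399, from 17.3, 20.9 and 26.4 TPM to 4.0, 5.38 and 2.62 TPM (-2.19). Of 110 tested zinc cluster factors 8 were higher and 15 lower on both scales (5 and 8 kept), and of 80 other factors 6 and 4 (3 and 3 kept). The shares were 7.27% and 13.6% for zinc cluster factors and 7.5% and 5.0% for the others, against 8.85% and 11.0% of all genes. The list of HET and NLR families, known for nonself recognition, held 140 tested genes and gave 13 higher and 29 lower (4 and 9 kept; medians -0.71 and -0.32). These are 9.29% and 20.7%, against 8.85% and 11.0% of all genes. The NACHT-domain gene AOL_s00110g331 fell by 2.54. AOL_s00080g76, which rose by 2.74, is annotated only with the domain PNP_UDP_1, which alone does not mark it as a HET or NLR gene.

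Secreted enzymes were more often lower than higher on both scales. Of 77 tested plant wall enzymes 6 were higher and 15 lower (1 and 8 kept), of 51 secreted peptidases other than subtilisins 3 and 10 (1 and 4 kept), and of 28 subtilisins 1 and 5 (1 and 3 kept), against 8.85% and 11.0% of all genes. The cellobiohydrolase gene CBHC (AOL_s00076g64), which acts on cellulose, fell from 10.5, 18.3 and 20.2 TPM to 1.59, 2.85 and 0 TPM (-2.96, limma adjusted p = 0.00218). An arabinofuranosidase, AOL_s00215g873, fell from 14.9, 15.98 and 21.9 TPM to 1.49, 3.23 and 2.37 TPM (-2.48). The subtilase AOL_s00054g992 had 138, 119.6 and 183 TPM and 13.9, 31.1 and 14.04 TPM, and the only subtilisin that rose, AOL_s00188g339, had 1.26, 4.39 and 1.12 TPM and 6.65, 10.2 and 8.22 TPM (1.64). Leucine aminopeptidase LAP1 (AOL_s00076g646) fell from 79.9, 45.7 and 156 TPM to 1.94, 14.7 and 5.91 TPM (-3.62), whereas a tripeptidyl aminopeptidase, AOL_s00110g236, rose from 53.9, 83.9 and 44.9 TPM to 518, 518 and 352 TPM (2.93, adjusted p = 0.000531) and was higher at 48 h (3.13).

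Very abundant genes for small secreted proteins differed in opposite directions. The serine protease inhibitor AOL_s00215g748 had 12893, 31926 and 22188 TPM in the wild type and 1709, 5158 and 3691 TPM in the labelled mutant (-2.71, limma adjusted p = 0.00249), without overlap. A less abundant gene of the same annotation, AOL_s00006g563, went the other way. It rose from 3.05, 12.4 and 2.84 TPM to 732, 162 and 404 TPM. The cerato-platanin AOL_s00083g444, a small cysteine-rich protein, had 5175, 3450.04 and 974 TPM and 10598, 10924 and 16390.4 TPM (2.26, adjusted p = 0.0114) and was higher at 48 h (2.56). In the labelled mutant the inhibitor AOL_s00215g748 thus lay below the cerato-platanin in every library, and in the wild type above it.

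Lectins and other adhesive proteins, which in this fungus are of interest for binding to nematodes, gave 7 higher and 5 lower of 68 tested on both scales (5 and 3 kept; medians -0.15 and 0.26). The shares, 10.3% and 7.35%, stand beside 8.85% and 11.0% of all genes. The lectin AOL_s00173g391 fell from 127, 116 and 157 TPM to 5.67, 33.3 and 19.8 TPM (-2.99, limma adjusted p = 0.00167). AOL_s00083g117, with PA14 and PAN domains, fell from 712, 1535 and 1734 TPM to 49.4, 263 and 174 TPM (-3.22). AOL_s00193g183, which is not a member of that list, holds a protease inhibitor domain and a ricin-type lectin domain. It was listed at 0 in 2 of the 3 labelled mutant libraries (0, 0.87 and 0 TPM) and had 10.4, 23.4 and 16.2 TPM in the wild type. A LysM domain gene, AOL_s00006g579, of a family that binds chitin, was near 0 in the wild type (0, 0.05 and 0.09 TPM) and had 14.7, 4.93 and 26.1 TPM in the labelled mutant (3.70, adjusted p = 0.00115).

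Enzymes of secondary metabolism moved strongly in both directions. Of 44 tested P450, polyketide and peptide synthase genes 11 were higher and 9 lower on both scales (9 and 4 kept), each above the shares of all genes. Within the run AOL_s00215g275 to AOL_s00215g283, known from the arthrosporols, all 9 genes were higher, with a median log2 fold change of 5.64. Its P450 gene AOL_s00215g278 stood at 226, 261 and 855 TPM in the labelled mutant, labelled mutant library 3 being the highest, and at 2.23, 4.0 and 3.06 TPM in the wild type. Other P450 genes fell. AOL_s00080g313 had 99.1, 135 and 158 TPM in the wild type and 2.37, 18.1 and 12.1 TPM in the labelled mutant (-3.77, limma adjusted p = 0.00143; -3.45 at 48 h), AOL_s00097g384 fell by 3.42 and AOL_s00176g104 by 3.28. Efflux carriers, which move drugs and toxins out of the cell, had the highest median of any list of at least 20 tested genes after scaling (1.14, and 0.60 on the TPM scale). On both scales 4 of 22 were higher and 0 lower (2 and 0 kept), which is 18.2% and 0%, against 8.85% and 11.0% of all genes. Among such genes FUS6 (AOL_s00054g649) and ROQT (AOL_s00170g107) rose by 3.32 and 1.82. The ABC transporter gene AOL_s00004g267 rose from 75.5, 46.8 and 21.7 TPM to 1104, 877 and 2079 TPM (4.86, adjusted p = 0.000184).

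Genes called in the same direction on both scales also lay side by side. Runs of at least 4 neighbours in locus order numbered 11 for higher genes and 7 for lower genes. Those that rose included AOL_s00004g536 to AOL_s00004g539, 4 genes of which the first and the last are pre-rRNA processing factors (median log2 fold change 1.39), and AOL_s00097g420 to AOL_s00097g423, 4 genes without annotation (3.45). Those that fell included AOL_s00006g567 to AOL_s00006g571, 5 genes that hold the rodlet gene AOL_s00006g570 (-2.56), AOL_s00076g402 to AOL_s00076g406 (5 genes, -2.46) and AOL_s00173g267 to AOL_s00173g270, which holds the glutamine synthetase gene AOL_s00173g269 (-1.61). Neighbours are not independent genes, and no test of clustering was made.

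Genes without any annotation made up 246 of the 828 higher and 270 of the 1033 lower genes. Of all 9355 genes tested, 7025 carried an annotation, and whether the shares differ was not tested. The largest rise of all was that of AOL_s00080g84, with 1.28, 0.95 and 0.34 TPM in the wild type and 1079, 594 and 1824 TPM in the labelled mutant (9.18, SE 0.54, limma adjusted p = 3.56e-06), and it was higher at 48 h (6.40, adjusted p = 7.09e-05). AOL_s00210g69 was listed at 0 in all 3 wild-type libraries and had 12.7, 62.2 and 45.2 TPM in the labelled mutant, and no gene with at least 5 TPM in the wild type was listed at 0 in all 3 labelled mutant libraries. AOL_s00188g197 rose from 1.10, 15.6 and 4.23 TPM to 107, 634 and 838 TPM (6.09) and AOL_s00110g306 fell from 144, 109 and 166 TPM to 4.19, 20.1 and 1.19 TPM (-4.48). The largest fall among annotated genes was that of AOL_s00188g307, an oxidase with an FAD-binding domain, with 376, 673 and 883 TPM in the wild type and 4.08, 41.1 and 14.97 TPM in the labelled mutant. In these falls labelled mutant library 2 was the highest of its group.

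A part of the differences was also present after induction. Of the 828 genes higher at 0 h 322 were higher at 48 h on both scales, which is 38.9% of the 828 and 37.7% of the 855 higher at 48 h. Of the 1033 lower genes 264 were lower at 48 h, which is 25.6% of the 1033 and 22.6% of the 1166 lower at 48 h. The opposite call was made at 48 h for 9 and 10 genes. The interaction was called on both scales for 97 of the 828 and 90 of the 1033, and for 237 of all 9355 genes tested. The 828 and 1033 were chosen by their difference at 0 h, which also enters the interaction. That choice by itself favours such calls, so these counts cannot show how many differences changed with time.

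In the authors' deposited table of calls for this pair of groups 1757 genes were marked as up and 953 as down. Of the 828 genes higher here on both scales, the authors' deposited table marked 820 as up, which is 99.0% of the 828 and 46.7% of the 1757. Of the 1033 lower genes, the authors' deposited table marked 750 as down, which is 72.6% of the 1033 and 78.7% of the 953, and no gene was marked in the opposite direction.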

How the data were processed

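RNA-seq libraries of A. oligospora hyphae were analysed as deposited, with groups taken from the genotype and time labels. The authors deposited TPM values per gene and library. A second deposited table holds FPKM values of the same libraries, and only its annotations (Swiss-Prot, KEGG orthology, Pfam) and coding lengths were used here. The authors also deposited read counts per library, with the percent of bases of quality 30. The deposited table named for raw counts holds correlations, so the count test first planned was replaced by limma on log2 values. A deposited table of the authors' calls was compared. The aligner, quantifier, trimming and genome build were not given in the sources used here. The 8 columns that hold group means were left aside.

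Of 11479 genes, the 9355 that reached 1 TPM in 3 or more of the 12 libraries were tested. Linear models with a mean for each of the 4 groups, without a replicate block, were fitted to log2(TPM + 1) of all 12 libraries with limma 3.58.1 in R 4.3.3, using eBayes moderation with a trend. It was repeated after dividing each library by its median ratio to the geometric mean of the libraries (factors 1.15 to 1.35 in the wild type at 0 h, 0.767 to 0.9 in the labelled mutant). The p-values are two-sided and were adjusted by Benjamini and Hochberg's method over the 9355 genes. Fold changes are on the log2(TPM + 1) scale, which understates the change of low genes. Depth per gene is unknown, since counts per gene were not used. A gene listed at 0 is not called absent. The fit was tested on simulated data.

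All 11479 locus tags matched the RefSeq gene table, which was used for neighbour order only, and 7738 genes carried an annotation. Of the lengths 99.98% were multiples of 3, so they are coding lengths. The 55 gene lists were taken by words of the annotation, which lets in some genes of other function. Genes were named by a rule: the MADS-box genes, the largest changes called on both scales without overlap of the groups and with a mean of 5 TPM or more in the higher one, and called members of each list. A further 28 of the 114 genes with a fold change in the text were chosen after their values were seen. The members and lists were chosen with earlier results of these data known. Alternatives were other pseudocounts, filters, variance models, scalings, library sets, the replicate block and each 0 h library left out.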

Additional observations from a re-analysis of the deposited data

Results flagged for a closer look

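For 21 of the genes named above the strain difference at 48 h differed from that at 0 h on both scales (limma interaction, adjusted p under 0.05). The values given are the log2 fold change at 48 h minus that at 0 h on the TPM scale. Chance and the choice of genes after their values were seen both enter such a selection.

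Genes that were higher in the labelled mutant at 0 h, with a smaller or opposite difference at 48 h, were 11 in number. Among wall and transport genes the change was -2.08 for FKS1 (AOL_s00054g491), -2.27 for the glucanase EXGB (AOL_s00043g294), -1.47 for the calcium exchanger AOL_s00043g370 and -2.95 for the ABC transporter AOL_s00004g267. Among genes of ribosome production it was -2.08 for ESF2 (AOL_s00004g539), -2.13 for NOP16 (AOL_s00004g387), -2.04 for UTP5 (AOL_s00081g347), -1.68 for RPA43 (AOL_s00193g40) and -1.52 for the chaperone SSB1 (AOL_s00007g116). For the histone methyltransferase SET1 (AOL_s00054g887) it was -2.71 and for the transcription factor AOL_s00215g460 it was -2.56. The log2 fold change at 48 h itself lay below 0 for EXGB, ESF2, NOP16, UTP5, RPA43 and SSB1 (-0.70 to -0.28), and none of these passed.

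Genes that were lower at 0 h, with a smaller or opposite difference at 48 h, were 10 in number. The change was 5.82 for the oxidase AOL_s00188g307, 4.1 for the glucose transporter AOL_s00054g267, 1.84 for the permease AOL_s00043g636, 3.0 for the mitochondrial carrier AOL_s00188g56 and 2.25 for the phosphatase PHOA (AOL_s00173g63). Among secreted proteins and recognition genes it was 4.48 for AOL_s00193g183, with inhibitor and lectin domains, 3.17 for the subtilase AOL_s00054g992, 2.69 for the arabinofuranosidase AOL_s00215g873 and 2.36 for the NACHT-domain gene AOL_s00110g331. For the P450 AOL_s00176g104 it was 2.63. The log2 fold change at 48 h itself lay above 0 for AOL_s00188g307, AOL_s00193g183, AOL_s00054g992, AOL_s00215g873 and AOL_s00043g636 (0.03 to 0.70), and none of these passed.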

How the results depend on the processing

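Scale and library choice moved the counts most. Against 830 higher and 3160 lower genes on the TPM scale, median-of-ratios scaling gave 1341 and 1033 and quantile normalisation 1249 and 1568. Leaving out 1 library gave 453 to 836 higher and 1643 to 3662 lower on the TPM scale, 729 to 1476 and 391 to 1271 on the scaled values, and 448 to 835 and 391 to 1271 on both. Wild-type library 3 and labelled mutant library 1 had the lowest mean correlation with the rest of their own groups (0.949 and 0.903). Without these libraries together the counts were 532 and 2315 on the TPM scale, 806 and 450 after scaling, and 526 and 450 on both. With only the 0 h libraries the scaled values gave 876 and 457, and both scales 617 and 457. The TPM-scale counts moved by less than 1.5 times under the other pseudocounts, filters and variance models, as did those of the scaled values. The gene AOL_s00078g125 was higher under every setting run, with log2 fold changes of 1.32 to 1.91 on the TPM scale and 1.80 to 2.51 after scaling when 1 library was left out. The cause of the dependence on single libraries was not tested.

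Same-numbered libraries of the strains correlated at 0.121, 0.102 and -0.023 in their deviations, and libraries of unlike number at -0.269 to 0.275. With 3 libraries per group these values cannot decide whether the numbers pair the samples. The replicate block gave 814 higher and 2975 lower genes on the TPM scale, 1239 and 859 after scaling and 808 and 859 on both. Of 2825 values of single named genes under the alternatives, 2735 kept their direction and side of the threshold, 90 kept the direction only, and none turned. What share of the spread comes from depth could not be separated, since counts per gene were not used.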

Other observations

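Further genes called on both scales, with no overlap of the groups and kept without each library, were chosen after their values were seen. The first 4 act on membrane lipids and were higher in the labelled mutant, while of 69 tested sphingolipid and phospholipid genes 6 were higher and 6 lower on both scales and of 41 ergosterol genes 4 and 2 (8.70% and 8.70%, and 9.76% and 4.88%, against 8.85% and 11.0% of all genes). The sphingosine N-acyltransferase LAC1 (AOL_s00006g298), which makes ceramide, had 104, 69.97 and 52.8 TPM in the wild type and 321, 186 and 156 TPM in the labelled mutant (log2 fold change 1.52, limma adjusted p = 0.00772). The sterol glucosyltransferase ATG26 (AOL_s00054g485) had 29.98, 25.98 and 20.8 TPM and 124, 98.8 and 70.2 TPM (1.87, adjusted p = 0.00227). The oxysterol-binding protein homologs AOL_s00097g441 and AOL_s00173g208 rose by 1.69 and 1.95.

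Of the redox and cofactor genes chosen, 1 was higher and 3 were lower. Thioredoxin reductase (AOL_s00078g209), which keeps thioredoxin reduced, rose from 517, 373 and 152 TPM to 1462, 1384 and 1738 TPM (2.30, limma adjusted p = 0.00321). The cell surface superoxide dismutase SOD4 (AOL_s00173g103) fell from 29.3, 27.2 and 44.1 TPM to 4.60, 10.4 and 8.47 TPM (-1.48 after scaling, adjusted p = 0.0101). The probable pyridoxamine phosphate oxidase PDX3 (AOL_s00006g349), an enzyme of vitamin B6 metabolism, fell from 1011, 923 and 759.8 TPM to 142, 261 and 178 TPM (-2.24, adjusted p = 0.00353). The mitochondrial glycerol-3-phosphate dehydrogenase (AOL_s00097g271) fell from 167, 107 and 121 TPM to 14.9, 51.4 and 23.3 TPM (-2.26, adjusted p = 0.00289).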
